A study of Homo sapiens with 6 samples.

Results

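The genes of the vascular endothelial growth factor (VEGF) system were followed in UE7T-9 cells with and without SHC4 overexpression. These were the 5 ligands VEGFA, VEGFB, VEGFC, VEGFD and PGF, the 3 receptor tyrosine kinases FLT1, KDR and FLT4, and the 2 neuropilin co-receptors NRP1 and NRP2. They were chosen by gene symbol, and all 10 were found among the 28181 genes listed in each library. The UE7T-9 line consists of mesenchymal stem cells from human bone marrow that were immortalized with hTERT and the papillomavirus gene E7, and both groups share this background. UE7T-9 SHC4 cells (3 libraries, genotype SHC4-OE) were infected with a lentivirus in which a CMV promoter drives the coding region of SHC4, an adaptor of receptor tyrosine kinases. UE7T-9 Cont cells (3 libraries, genotype WT) are called Nontarget in the sample labels, whereas the study describes them as carrying GFP from the same kind of lentivirus. Infected cells were selected with puromycin. Libraries are named Cont or SHC4 with their replicate number below. The series text speaks of clones and the labels of biological replicates, and neither gives how many clones or infections stood behind the 3 libraries of a group. The p-values below therefore measure the spread between these libraries, which may be technical.

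VEGF ligands are secreted dimers that bind receptor tyrosine kinases on endothelial cells. VEGFA binds FLT1 (VEGFR1) and KDR (VEGFR2), VEGFB and PGF bind FLT1, and VEGFC and VEGFD bind FLT4 (VEGFR3) and, after proteolytic processing, KDR. KDR carries most of the mitogenic and migratory signal in blood vessels, FLT1 largely traps ligand, and FLT4 acts mainly in lymphatic vessels. Neuropilins bind both VEGF ligands and class 3 semaphorins and have no kinase of their own. Mesenchymal stromal cells are known as a source of VEGFA in bone marrow, while the receptor kinases are known chiefly from endothelium.

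The values are normalized counts, in which the authors divided the reads of each gene by 1 size factor per library. Recovered depth was 18144993 to 27721397 reads per library, and 3 reads corresponded to a normalized count of 2.50 to 3.53. SHC4 had a normalized count of 56.5 to 157 in the Cont libraries and 119166 to 155006 in the SHC4 libraries, so the labels held in every library. Cont replicate 1 stood apart from the other controls. Across genes, its log2 values correlated more closely with SHC4 replicate 1 (Pearson's r = 0.975) than with Cont replicate 2 (0.967) or 3 (0.962). Cont replicates 2 and 3 correlated at 0.974 with each other. Cont replicate 3 was the control least like the SHC4 libraries (0.963 to 0.964). Results are also given without Cont replicate 1. Leaving out a control that resembles an SHC4 library can by itself widen the difference between the groups. Calls made without it are therefore no added support. All 11 mesenchymal stem cell markers were present, with summed normalized counts of 212696 to 634375 in the Cont libraries and 389074 to 576012 in the SHC4 libraries. The defining endothelial gene CDH5 (VE-cadherin) stood at 0 to 1.18 and the leukocyte gene PTPRC at 0 to 6.82. Other markers of these lineages were detected. The endothelial markers summed to 479 to 755 in the Cont libraries and 422 to 509 in the SHC4 libraries, with EGFL7 the most abundant on average. The haematopoietic markers summed to 101 to 115 and 71.2 to 113, with CD14 the most abundant.

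The UE7T-9 libraries were rich in VEGFA, VEGFB, VEGFC and NRP1 transcripts and poor in transcripts of VEGFD and the receptor kinases. To compare genes with each other, levels were divided by the length of the exons of their coding transcripts, giving normalized counts per kilobase. VEGFB came first with 1597 ± 304 per kilobase in the Cont libraries and 2949 ± 740.0 in the SHC4 libraries (SD, n = 3 each). It was followed by VEGFA (1384 ± 322 and 1336 ± 134), VEGFC (1092 ± 282 and 1128 ± 135) and NRP1 (691 ± 51.2 and 704 ± 33.3). These 4 genes lay between the 88.2th and the 97.1th percentile of 15259 protein-coding genes ranked by the same measure. NRP2 (89.4 ± 14.0 and 74.7 ± 12.2 per kilobase) and PGF (84.5 ± 30.3 and 32.5 ± 11.5) took intermediate places, at the 42.4th and 36.7th percentile. KDR (11.1 ± 1.85 and 6.60 ± 1.90 per kilobase), VEGFD (2.15 ± 1.13 and 4.24 ± 2.93), FLT1 (3.63 ± 2.47 and 2.20 ± 0.604) and FLT4 (0.127 ± 0.220 and 0.504 ± 0.475) came last, from the 19.3th down to the 1.07th percentile. Over all 6 libraries, the neighbours VEGFB and VEGFA, VEGFA and VEGFC, NRP2 and PGF, KDR and VEGFD, and VEGFD and FLT1 overlapped in range, whereas the other 4 neighbouring pairs did not. Within the SHC4 libraries alone, VEGFB lay above VEGFA in all libraries and NRP2 above PGF. The place of VEGFA depends on the length used, because its 32 annotated transcripts include long forms with retained introns. With the exons of all transcripts (14431 bases in place of 3768), VEGFA had 361 ± 83.9 per kilobase in the Cont libraries and ranked below VEGFC and NRP1. The plot of log2 values by library shows the same contrast. VEGFA, VEGFB, VEGFC and NRP1 stand high, and the receptor kinases and the ligand VEGFD stand low.

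**Figure D1:**
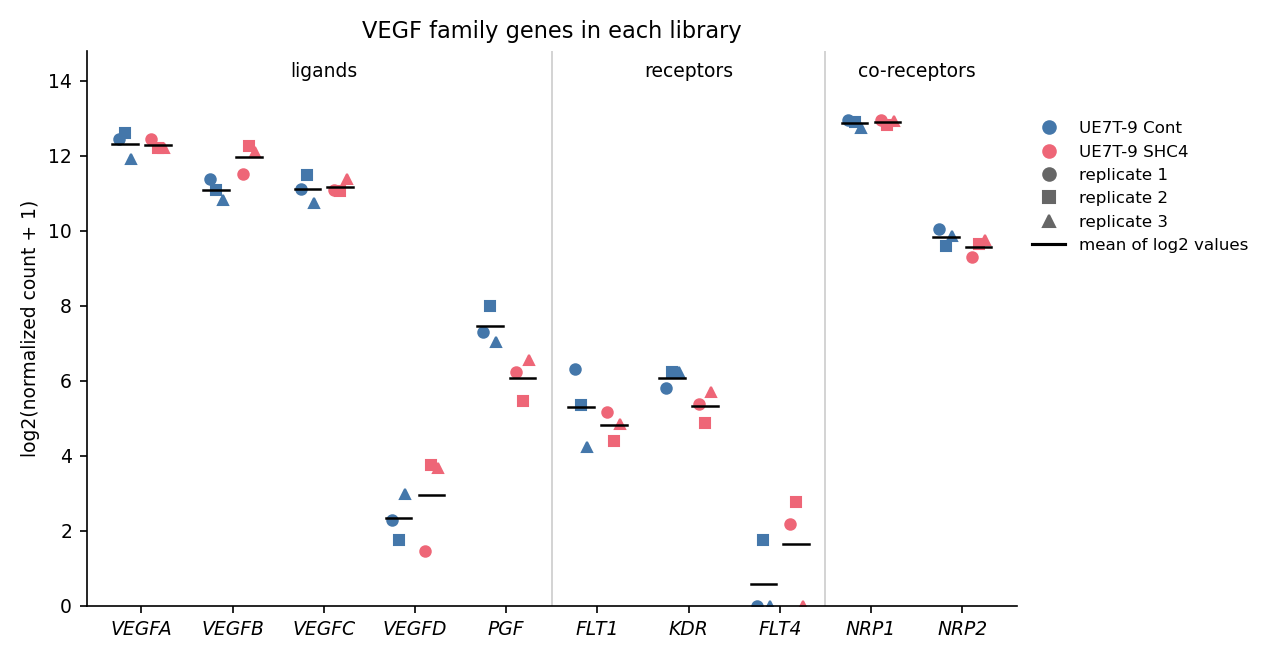
Normalized counts of the 10 VEGF family genes on the log2(normalized count + 1) scale (vertical axis), with 1 point per library (marker shape: replicate number) and a bar at the mean of the log2 values of each group. UE7T-9 Cont and UE7T-9 SHC4 do not overlap for VEGFB, PGF and KDR and overlap for the other 7 genes. These are levels per gene, not per length.

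VEGFB, PGF and KDR had values that did not overlap between the groups, with VEGFB higher and PGF and KDR lower in the SHC4 libraries. Such separation was seen in 19.3% of the 23040 genes tested (9.13% higher, 10.2% lower), and the 3 of 10 members (30%) are to be read against that background. All 10 members passed the filter. Leaving aside FLT4, whose reads lay around the floor, 4 had a positive and 5 a negative log2 fold change (median -0.03, against -0.004 over all genes). In the test across all genes (limma on log2 values, adjusted with the Benjamini-Hochberg method), none of the 10 members had an adjusted p below 0.05, against 0.0651% of all genes, and 3 had an unadjusted p below 0.05, against 14.4% of all genes. DESeq2 on the recovered reads called VEGFB and PGF among the 8 members that received an adjusted p, against 4.14% of all genes (2.06% higher and 2.08% lower). edgeR called none of the 8 members it tested, against 0.0694% of all genes, and gave 3 of them an unadjusted p below 0.05, against 17.6% of all genes. Without Cont replicate 1, limma called VEGFB alone, against 5.68% of all genes (2.99% higher, 2.69% lower). As these are bulk libraries, fewer cells expressing a gene and less RNA per cell cannot be told apart.

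The regions upstream of VEGFB, PGF and KDR are shown because these were the members whose groups did not overlap, a choice made after their values were seen. Windows were the 250 bases before the start of the gene in RefSeq (GRCh38.p14), read 5′ to 3′ on the strand of the gene. For VEGFB and PGF, the 46 and 20 bases nearest the start are left out of the runs because GENCODE 29 places them inside the gene. Capitals stand at each match to the GC box GGGCGG or its reverse complement CCGCCC.
VEGFB upstream window, chr11:64234334-64234537, plus strand: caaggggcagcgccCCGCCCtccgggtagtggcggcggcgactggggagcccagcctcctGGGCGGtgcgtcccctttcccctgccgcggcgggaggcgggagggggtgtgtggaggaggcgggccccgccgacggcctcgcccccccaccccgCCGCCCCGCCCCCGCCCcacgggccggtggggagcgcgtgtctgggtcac
PGF upstream window, chr14:74955785-74956014, minus strand: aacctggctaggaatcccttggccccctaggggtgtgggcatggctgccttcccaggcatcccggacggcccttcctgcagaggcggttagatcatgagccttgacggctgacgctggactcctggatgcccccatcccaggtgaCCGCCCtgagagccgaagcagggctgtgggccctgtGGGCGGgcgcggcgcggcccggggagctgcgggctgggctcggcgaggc
KDR upstream window, chr4:55125596-55125845, minus strand: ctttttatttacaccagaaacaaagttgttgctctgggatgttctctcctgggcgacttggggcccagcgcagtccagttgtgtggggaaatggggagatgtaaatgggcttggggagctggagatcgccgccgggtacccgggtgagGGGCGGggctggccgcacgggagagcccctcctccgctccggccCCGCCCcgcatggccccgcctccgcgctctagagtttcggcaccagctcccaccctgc
The whole VEGFB window held 6 GC box matches, counting overlapping ones, of which 5 are in the run shown, and 82.8% G or C. The PGF and KDR windows held 2 matches each, with 70.8% and 65.2% G or C, against a median of 58% over all windows. A GC box is common, occurring in 42.6% of the 35114 windows of this length. The windows of all 7 members that had an entry (VEGFB, VEGFC, VEGFD, PGF, KDR, FLT1 and NRP2) were searched on both strands for 3 further motifs. These were the hypoxia-inducible factor core ACGTG (in 18.5% of all windows), the STAT motif TTCNNNGAA (6.57%) and the AP-1 motif TGANTCA (6.57%). One match was found, an AP-1 motif upstream of VEGFD, which was also the member window without a GC box and with the lowest G or C content (43.2%). PGF had 2 listed starts, and the one at the 5′ end of the RefSeq gene was used. The NRP2 window lay wholly inside the gene as GENCODE 29 draws it.

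VEGFB (ENSG00000173511, chromosome 11 from 64234538 to 64238793, plus strand, GENCODE 29 on GRCh38) encodes a ligand of FLT1 and NRP1 that is abundant in tissues with high fatty acid use. Its normalized count was 2639, 2174 and 1800.2 in Cont replicates 1, 2 and 3 and 2938, 4922 and 4351 in the SHC4 libraries. Each SHC4 library exceeded each control, with SHC4 replicate 1 only slightly above Cont replicate 1. The means were 2204 ± 420.1 and 4070.1 ± 1021 (SD, n = 3 each), a ratio of 1.85. The limma log2 fold change was 0.87 (95% interval 0.39 to 1.35, limma adjusted p = 0.164). The estimate of DESeq2 was 0.88 (standard error 0.24, adjusted p = 0.010), and that of edgeR had an adjusted p of 0.156. Without Cont replicate 1, the control with the highest value, limma estimated 1.01 (adjusted p = 0.0262). Leaving out any other library gave limma adjusted p-values from 0.0655 (without SHC4 replicate 1, log2 fold change 1.09) to 0.588 (without SHC4 replicate 2, 0.71). An exact permutation test over libraries gave a two-sided p of 0.1, the smallest possible with 3 libraries against 3.

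PGF (ENSG00000119630, chromosome 14 from 74941834 to 74955784, minus strand), the placental growth factor, encodes a ligand of FLT1 and the neuropilins. Its normalized count was 158, 254 and 131 in the Cont libraries and 73.8, 43.3 and 92.0 in the SHC4 libraries. Every SHC4 library lay below every control. The means were 181 ± 64.9 and 69.7 ± 24.6 (SD, n = 3 each), so the control mean was 2.60 times as high. The limma log2 fold change was -1.37 (95% interval -2.13 to -0.62, limma adjusted p = 0.166). DESeq2 called PGF lower with the same size of change (-1.38, standard error 0.36, adjusted p = 0.00874), whereas edgeR did not (adjusted p = 0.161). Between 52 and 216 reads stood behind each value, which alone gives a counting error of 6.80% to 13.9%, while the SD between libraries was 35.8% of the mean in the Cont libraries and 35.3% in the SHC4 libraries. Without Cont replicate 1, the log2 fold change was -1.44 (limma adjusted p = 0.0567), and the exact permutation test gave p = 0.1.

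VEGFA (ENSG00000112715, chromosome 6 from 43770184 to 43786487, plus strand) is the main angiogenic ligand and a known target of hypoxia-inducible factors. Its normalized count was 5531, 6237 and 3877 in the Cont libraries and 5620.3, 4744 and 4743 in the SHC4 libraries. The 3 SHC4 values all lay inside the range of the controls. The log2 fold change was -0.03 (95% interval -0.45 to 0.39, limma adjusted p = 0.963), an interval that leaves room for changes of moderate size in either direction. The counting error was 1.25% to 1.59%, so the width of the interval came from the spread between libraries, which was 23.2% of the mean in the Cont libraries. The counts sum all splice forms of VEGFA, whose proteins differ in how they bind heparan sulfate and neuropilins.

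VEGFC (ENSG00000150630, chromosome 4 from 176683538 to 176792727, minus strand), the main lymphangiogenic ligand, had 2217, 2855 and 1693 in the Cont libraries and 2185, 2150.0 and 2649 in the SHC4 libraries. The SHC4 libraries again fell within the control range, and the log2 fold change was 0.07 (95% interval -0.36 to 0.50, limma adjusted p = 0.896). VEGFD (ENSG00000165197, X chromosome from 15345591 to 15384376, minus strand), the second FLT4 ligand, was barely detected. It had 4, 2 and 7 reads in the Cont libraries and 2, 15 and 10 in the SHC4 libraries. The groups overlapped, with the lowest and the highest normalized count both in the SHC4 libraries. The limma interval of its log2 fold change ran from -1.02 to 2.26 (adjusted p = 0.743), so no difference was detectable at this depth.

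KDR (ENSG00000128052, chromosome 4 from 55078259 to 55125595, minus strand), the principal signalling receptor for VEGFA, had a normalized count of 54.6, 74.2 and 73.8 in the Cont libraries and 40.4, 28.3 and 51.2 in the SHC4 libraries. All 3 SHC4 libraries lay below the controls, the closest pair being Cont replicate 1 and SHC4 replicate 3. The means were 67.5 ± 11.2 and 40.0 ± 11.5 (SD, n = 3 each), and the control mean was 1.69 times as high. The limma log2 fold change was -0.77 (95% interval -1.46 to -0.08, unadjusted p = 0.0327), which did not pass adjustment over all genes (limma adjusted p = 0.303, DESeq2 adjusted p = 0.244). With 34 to 75 reads per library, the counting error of 11.5% to 17.1% stands beside a spread between libraries of 16.6% of the mean in the Cont libraries and 28.7% in the SHC4 libraries. Without Cont replicate 1, the log2 fold change was -0.91 (limma adjusted p = 0.139).

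FLT1 (ENSG00000102755, chromosome 13 from 28300344 to 28495145, minus strand), the receptor of VEGFA, VEGFB and PGF, had 79.0, 40.0 and 17.7 in the Cont libraries and 35.2, 19.98 and 27.9 in the SHC4 libraries. The controls differed 4.46-fold among themselves, and the SHC4 libraries lay within their range. The limma log2 fold change of -0.49 (95% interval -1.65 to 0.66, adjusted p = 0.704) depended on single controls. It was 0.015 without Cont replicate 1 (limma adjusted p = 0.991) and -1.03 without Cont replicate 3 (limma adjusted p = 0.455). Gene counts cannot separate the membrane receptor from the soluble FLT1 forms that arise by alternative polyadenylation and splicing. FLT4 (ENSG00000037280, chromosome 5 from 180601506 to 180649624, minus strand), the receptor of VEGFC and VEGFD, had 0, 2 and 0 reads in the Cont libraries and 4, 7 and 0 in the SHC4 libraries. With counts around the floor of 3 reads, no fold change is given, and the test did not separate the groups (limma adjusted p = 0.627).

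NRP1 (ENSG00000099250, chromosome 10 from 33177492 to 33336262, minus strand) was the steadiest member. Its normalized count was 7883, 7708 and 6848 in the Cont libraries and 7868, 7204 and 7778 in the SHC4 libraries, and the highest library exceeded the lowest 1.15-fold. The groups overlapped throughout. The log2 fold change was 0.03, with a 95% interval from -0.27 to 0.33 (limma adjusted p = 0.946), the narrowest limma interval of the 10 members. NRP2 (ENSG00000118257, chromosome 2 from 205681990 to 205798133, plus strand), the neuropilin associated with VEGFC and lymphatic vessels, had 1057, 769.9 and 929.6 in the Cont libraries and 627, 807 and 868 in the SHC4 libraries. Its group means were 919 ± 144 and 767 ± 125 (SD, n = 3 each), and the ranges overlapped. The log2 fold change was -0.26 (95% interval -0.64 to 0.12, limma adjusted p = 0.513).

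No other gene in GENCODE 29 shared exon bases with VEGFB, VEGFC, VEGFD, PGF, KDR, FLT1 or FLT4. Antisense genes shared 188 exon bases with VEGFA, 561 with NRP1 and 147 with NRP2. The strand setting of the counting is not given in the sources used here, so reads from these stretches cannot be assigned to a strand. The antisense genes of NRP1 and NRP2 had mean normalized counts of 0.474 and 0.277. The plot of fold changes sets 3 estimates of each member but FLT4 side by side.

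**Figure D2:**
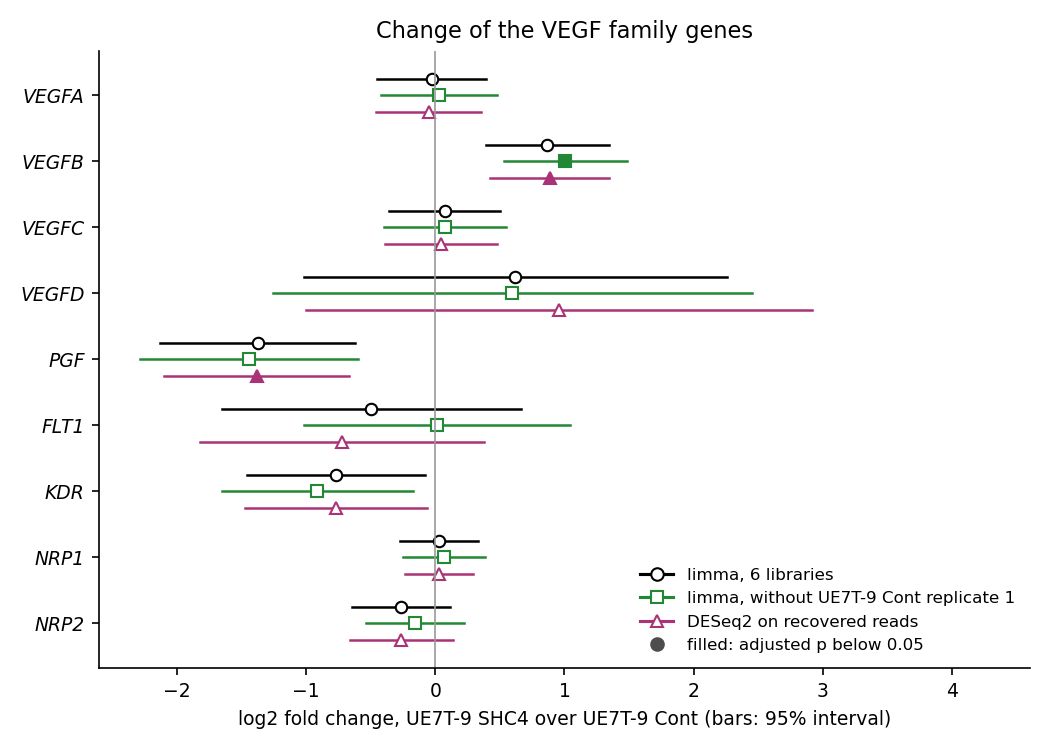
Log2 fold change of UE7T-9 SHC4 over UE7T-9 Cont (horizontal axis) for 9 genes (FLT4, with reads around the floor, is left out), with 95% intervals, from limma on all 6 libraries, limma without Cont replicate 1 and DESeq2 on recovered reads. Symbols are filled where the adjusted p was below 0.05, which was the case for VEGFB in DESeq2 and in limma without Cont replicate 1, and for PGF in DESeq2. The widest intervals are those of VEGFD, which had at most 15 reads.

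The balance between ligands was also taken within each library, where the size factor cancels. VEGFB and PGF, which share FLT1 as their receptor, stood at a ratio of 16.7, 8.55 and 13.8 normalized counts of VEGFB to 1 of PGF in the Cont libraries and 39.8, 114 and 47.3 in the SHC4 libraries. The lowest ratio in the SHC4 libraries was thus above the highest ratio in the controls. As this pair was picked after the values were seen, the ratio is a description without a test. VEGFB stood at 0.477, 0.349 and 0.464 of the normalized count of VEGFA in the Cont libraries and at 0.523, 1.04 and 0.917 in the SHC4 libraries. Of the summed ligand level per kilobase, VEGFB made up 33.3% to 42.2% in the Cont libraries and 45.2% to 60.5% in the SHC4 libraries. VEGFA made up 32.0% to 35.0% and 21.4% to 31.6%. The share of VEGFC was 23.7% to 29.2% in the Cont libraries and 17.7% to 22.5% in the SHC4 libraries. PGF took 1.63% to 2.51% and 0.343% to 0.747%. Because shares add up to the same total, the lower shares of VEGFA and VEGFC accompany the higher share of VEGFB and do not show that these genes changed. With the exons of all transcripts as length, the mean share of VEGFB was 52.1% in the Cont libraries and 65.8% in the SHC4 libraries, and that of VEGFA was 13.1% and 9.10%. Among the 5 receptors and co-receptors, NRP1 took 85.9% to 88.7% of the level per kilobase in the Cont libraries and 88.3% to 91.1% in the SHC4 libraries, while KDR took 1.06% to 1.65% and 0.622% to 1.04%.

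**Figure D3:**
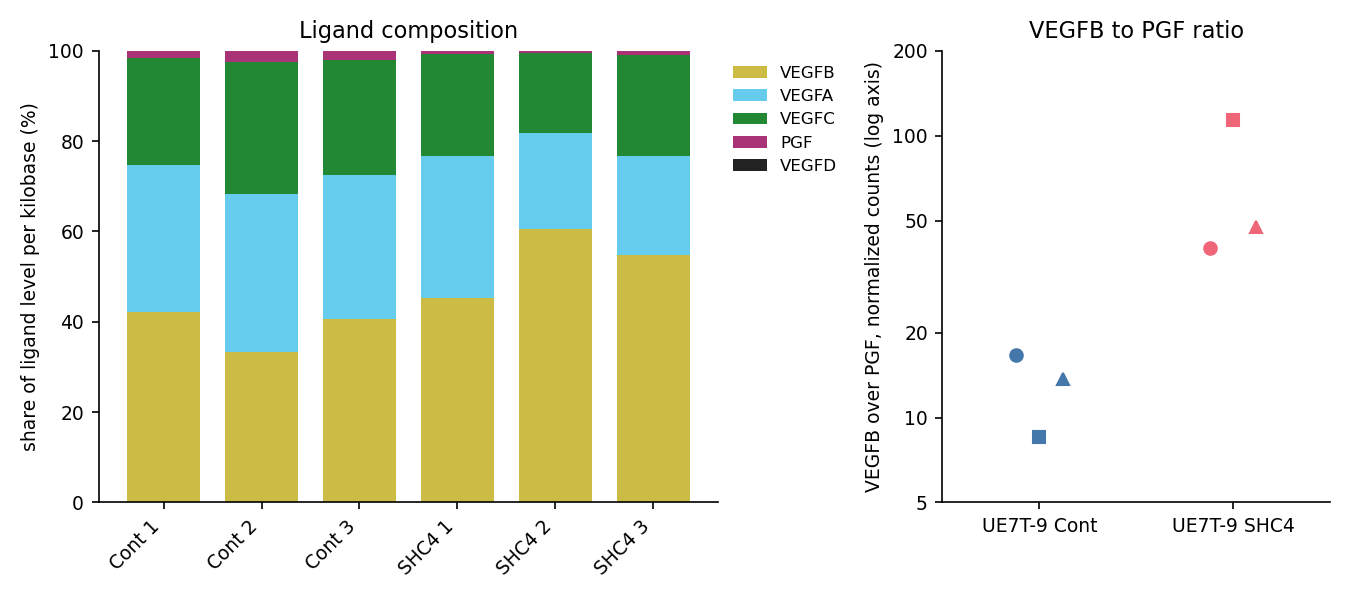
Left, the share of each ligand in the summed ligand level per kilobase of coding exon, in percent (vertical axis), for each of the 6 libraries (horizontal axis). Right, the ratio of VEGFB to PGF normalized counts on a log axis, with 1 point per library. The UE7T-9 SHC4 ratios (39.8 to 114) all lie above the UE7T-9 Cont ratios (8.55 to 16.7).

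Genes with the pattern most like VEGFA and VEGFB were sought among 15856 other genes averaging at least 10 normalized counts. Likeness was the mean absolute difference between log2 profiles over the 6 libraries, each centred on its own mean. Closest to VEGFB was H6PD, an enzyme of the pentose phosphate pathway in the endoplasmic reticulum, at 0.055 log2 units. Next were AHRR, the repressor of the aryl hydrocarbon receptor, at 0.062 and the metalloproteinase inhibitor TIMP2 at 0.063. H6PD had normalized counts of 1233, 1032 and 884 in the Cont libraries and 1563, 2307 and 2027 in the SHC4 libraries, and its libraries stood in the same order as those of VEGFB. Closest to VEGFA were the chromatin regulator JARID2 at 0.048, the lectin-like gene CLEC2D at 0.048 and LRRC1 at 0.052. These matches are given as a description only.

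The genes around the VEGF system were examined as 11 further lists holding 150 listed genes. In limma, none of the 142 tested genes was called, and 26 had an unadjusted p below 0.05, against 14.4% of all genes. DESeq2 called 8 of 123 genes (6.50%, against 4.14% of all genes), of which 2 were higher and 6 lower in the SHC4 libraries, and edgeR called 0 of 124 (21 at an unadjusted p below 0.05, against 17.6% of all genes). Without Cont replicate 1, limma called 13 of 143 (9.09%, against 5.68% of all genes), 9 higher and 4 lower. Those higher were PLXND1, SEMA3B, NFATC1, ADM, CCBE1, PDGFRB, PDGFRA, THY1 and VCAM1, and those lower SEMA3A, PPP3CB, MMP3 and ITGB3. These lists were chosen around the known biology of the VEGF system, with earlier results of these data known.

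Among the neuropilin and plexin partners, DESeq2 called 1 of 11 genes lower (against 2.08% of all genes) and none higher (2.06%). The median log2 fold change over the 12 tested in limma was 0.16. The gene was SEMA3A, which encodes a repulsive guidance ligand that competes with VEGFA for NRP1. It had normalized counts of 664, 936 and 1177 in the Cont libraries and 407, 435 and 560.1 in the SHC4 libraries. SEMA3A thus separated the groups, as did 19.3% of all genes (log2 fold change -0.96, limma adjusted p = 0.146, DESeq2 adjusted p = 0.00522). SEMA3C (4204 ± 182 and 6272 ± 1632) and the plexin PLXND1 (3256 ± 867 and 4183 ± 333, SD, n = 3 each) were the most abundant of the list. Neither was called with all libraries.

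Of 37 genes of VEGF receptor signalling with an adjusted p in DESeq2, 1 was called lower (against 2.08% of all genes) and none higher (2.06%). The median log2 fold change over the 39 tested in limma was -0.0004. PPP3CB, a catalytic subunit of calcineurin, had 2405, 5964 and 7958 in the Cont libraries and 1565, 1633 and 1841 in the SHC4 libraries (limma log2 fold change -1.53, adjusted p = 0.157, DESeq2 adjusted p = 0.000225). Cont replicate 1 lay nearer to UE7T-9 SHC4 than to the other controls. The abundant small heat shock protein gene HSPB1 (6073 ± 1193 and 7731 ± 425) and the GTPase gene RAC1 (6358 ± 747 and 6559 ± 485, SD, n = 3 each) overlapped between groups.

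The regulators of VEGFA by oxygen gave no call in limma or DESeq2 (8 tested, median 0.15). In limma, 2 of the 8 had an unadjusted p below 0.05, both higher, against 14.4% of all genes. ARNT2 had 1728, 1404 and 514 in the Cont libraries and 1919, 2110 and 2093 in the SHC4 libraries. Its groups did not overlap, as in 19.3% of all genes (log2 fold change 0.92, limma adjusted p = 0.307). HIF1A had 16847 ± 2741 in the Cont libraries and 16781 ± 883 in the SHC4 libraries, and EPAS1, which encodes HIF-2 alpha, had 15016 ± 2971 and 20898 ± 5431 (SD, n = 3 each). EGLN3, a hypoxia-inducible prolyl hydroxylase, and HIF3A were near 0 in every library. Of the other hypoxia-inducible genes, limma called none of 12 and DESeq2 none of 11 (median -0.12). ADM, which encodes the vasoactive peptide adrenomedullin, had 5366, 4317 and 2717 in the Cont libraries and 6352, 5858 and 6162 in the SHC4 libraries. ADM thus separated the groups, as did 19.3% of all genes (limma adjusted p = 0.267). It was called without Cont replicate 1 (log2 fold change 0.84, limma adjusted p = 0.0362). SLC2A1 separated the groups in the other direction and had the smallest limma adjusted p of this list. It had 1337, 1585 and 1381 in the Cont libraries and 1157, 765 and 897 in the SHC4 libraries (log2 fold change -0.63, limma adjusted p = 0.1797, DESeq2 adjusted p = 0.0523). The groups overlapped for the other genes of this list. The glycolytic genes ENO1 (29132 ± 4639.9 and 26015 ± 8791) and LDHA (16336 ± 3852 and 17462 ± 4199.6) were the most abundant and overlapped between groups.

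Among proteases and cofactors that process or release VEGF ligands, DESeq2 called 2 of 16 lower (against 2.08% of all genes) and none higher (2.06%). The median log2 fold change over the 17 tested in limma was -0.11. PCSK5, a proprotein convertase that cleaves VEGFC, had 191, 214 and 193 in the Cont libraries and 109.9, 81.6 and 129 in the SHC4 libraries (log2 fold change -0.92, limma adjusted p = 0.151, DESeq2 adjusted p = 0.0127). The stromelysin gene MMP3 had 2.92, 118 and 66.9 in the Cont libraries and 8.79, 3.33 and 9.32 in the SHC4 libraries, so Cont replicate 1 was the lowest library of all (DESeq2 adjusted p = 0.0214, limma adjusted p = 0.433). MMP14 (50729.7 ± 16101 and 56843 ± 15419) and MMP2 (43121 ± 7812 and 93626 ± 52225, SD, n = 3 each), which encode metalloproteinases, were the most abundant of the list and were not called. SHC4 replicate 1 had 40235 of MMP2, inside the control range, against 144602 and 96039.9 in the other SHC4 libraries.

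Of 17 co-receptors and matrix proteins that bind VEGF or its receptors, DESeq2 called 1 higher and 1 lower (against 2.06% and 2.08% of all genes). Limma called none, and 13 of the 17 had a positive log2 fold change (median 0.24, against -0.004 over all genes). ITGB3, the integrin subunit that pairs with alpha v and associates with KDR, had 401, 485 and 460.4 in the Cont libraries and 265, 281 and 218 in the SHC4 libraries (log2 fold change -0.82, limma adjusted p = 0.111, DESeq2 adjusted p = 0.00216). THBS1, a matrix protein that binds VEGF and opposes angiogenesis, had 66805 ± 20316 and 119652 ± 11523 (SD, n = 3 each). Its log2 fold change was 0.89 (limma adjusted p = 0.274, DESeq2 adjusted p = 0.0178). FN1, the fibronectin gene, had 994063 in Cont replicate 1 against 434039.6 and 271683 in the other controls, and 760605 to 834064 in the SHC4 libraries.

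KDR and FLT1 are endothelial genes, and other endothelial genes are therefore given beside them. Of 15 endothelial markers, 13 were listed and 12 tested, with 3 positive and 9 negative log2 fold changes (median -0.22, against -0.004 over all genes). Limma called none of the 12. Their summed normalized count was 479 to 755 in the Cont libraries and 422 to 509 in the SHC4 libraries, ranges that overlap. Of the 7 that received an adjusted p in DESeq2, 1 was called lower (against 2.08% of all genes) and none higher (2.06%). The gene was EGFL7, a secreted regulator of vessel formation (308 ± 44.9 and 163 ± 57.3, SD, n = 3 each, limma log2 fold change -0.97 with an adjusted p of 0.188, DESeq2 adjusted p = 0.0460). PECAM1 had 7.80 to 12.8 in the Cont libraries and 9.67, 36.6 and 38.4 in the SHC4 libraries (limma adjusted p = 0.407), and ERG, an endothelial transcription factor, varied from 34.4 to 199 within the controls. Their part in the lower KDR values was not tested. With CDH5 at no more than 1.18, the gene that defines blood vessel endothelium was at or below 1 read in each library. Of the angiopoietins and TIE receptors, the ligand gene ANGPT1 was well expressed (939 ± 37.2 and 888 ± 124, SD, n = 3 each) and ANGPT4 was low (10.6 to 11.8 in the Cont libraries and 1.66 to 12.8 in the SHC4 libraries). Limma called none of the 4 tested genes, and DESeq2 gave an adjusted p to ANGPT1 alone (0.866).

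Among the 11 mesenchymal stem cell markers, DESeq2 called 1 higher (against 2.06% of all genes) and none lower (2.08%). Limma called none, and 9 had a positive log2 fold change (median 0.41, against -0.004 over all genes). PDGFRB, a receptor of platelet-derived growth factor, had 4122, 1487 and 1678 in the Cont libraries and 6634, 5281 and 5178 in the SHC4 libraries (log2 fold change 1.38, limma adjusted p = 0.162, DESeq2 adjusted p = 0.0171). The collagen genes COL1A1 and COL1A2, the most abundant of the list, were highest in Cont replicate 1 (315042 and 238109) among all 6 libraries and overlapped between groups. Without Cont replicate 1, limma called 4 of the 11 higher, against 2.99% of all genes, namely PDGFRB, PDGFRA, THY1 and VCAM1. The 2 markers with a negative log2 fold change in all libraries were MCAM (-0.58, limma adjusted p = 0.218) and NT5E (-0.36, limma adjusted p = 0.508). MCAM had 1383, 1282 and 988 in the Cont libraries and 910, 638 and 904 in the SHC4 libraries. It thus separated the groups, as did 19.3% of all genes, whereas NT5E overlapped. Limma called none of the haematopoietic (4 tested) or epithelial (6 tested) markers, and DESeq2 called none of the 2 of each list to which it gave an adjusted p. Their summed normalized counts were 101 to 115 and 57.1 to 88.7 in the Cont libraries and 71.2 to 113 and 29.1 to 88.8 in the SHC4 libraries. The most abundant were CD14 (77.4 ± 9.46 and 65.2 ± 11.2) and ITGAM (22.8 ± 1.62 and 23.4 ± 16.5) of the haematopoietic genes, and CLDN4 (28.8 ± 10.6 and 25.5 ± 15.8) and CDH1 (13.9 ± 3.58 and 11.3 ± 7.88, SD, n = 3 each) of the epithelial genes. The plot of the lists shows each tested gene on the limma scale.

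**Figure D4:**
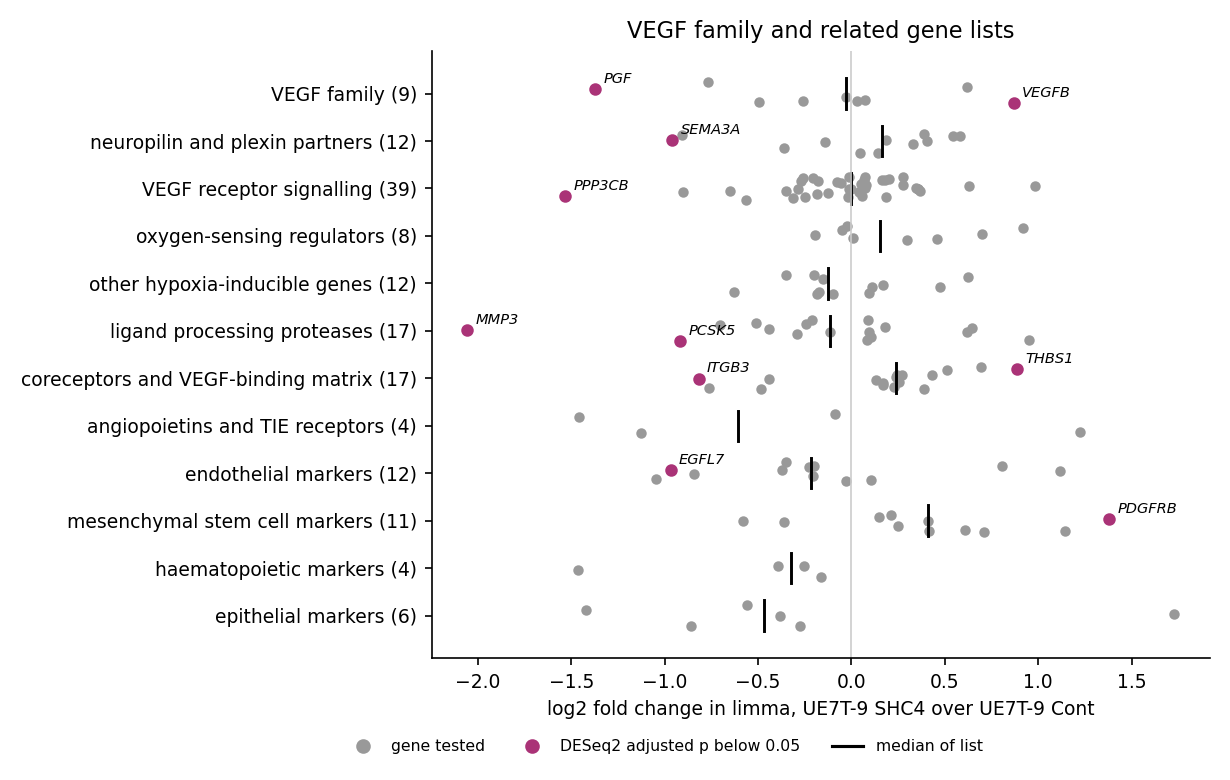
Limma log2 fold change of UE7T-9 SHC4 over UE7T-9 Cont (horizontal axis) for every tested gene of the VEGF family but FLT4 and of the 11 further lists, with the number of genes drawn in brackets. A black bar marks the median of each list, and coloured, named points are genes with a DESeq2 adjusted p below 0.05. The list medians lie between -0.61 (angiopoietins and TIE receptors, 4 genes) and 0.41 (mesenchymal stem cell markers).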

How the data were processed

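From UE7T-9 SHC4 (3 samples) and UE7T-9 Cont (3), RNA was extracted with an RNeasy Mini Kit, made into libraries with a NEBNext Ultra kit and sequenced on a NovaSeq system. The submitters' processing notes name HISAT2 2.0.5, featureCounts 1.5.0-p3 and DESeq2. The genome build, annotation and strand setting are not given in the sources used here. The authors deposited a signal per gene, namely reads over a size factor that is shared within a library. All values (100%, tolerance 0.01 reads) were whole multiples of 1 step, so reads were recovered by division. Recovered depth was 18144993 to 27721397 reads. The floor was set at 3 reads, and counting errors cover counting only.

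Samples were grouped by their labels. Symbols and positions were matched by Ensembl identifier (28181 of 28181). The main test was limma 3.58.1 (lmFit, eBayes with trend, R 4.3.3) on log2(value + 1), fitted to the 23040 genes averaging 1 or more, adjusted with the Benjamini-Hochberg method and called at an adjusted p below 0.05. A fold change on this scale understates that of low genes. DESeq2 1.42.0 and edgeR 4.0.16 (quasi-likelihood, TMM, filterByExpr) were run on recovered reads, and other scalings, filters, pseudocounts, a replicate block and leaving out each library were tried. All 3 tests were tested on simulated data.

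The 10 members and all lists were chosen with earlier results of these data known. Genes named from each further list were those with an adjusted p below 0.05 in limma or DESeq2 (up to 3 per direction) and the 2 with the highest mean. EGLN3, HIF3A, ARNT2, CDH5, PTPRC, PECAM1, THY1, VCAM1, PDGFRA, MCAM, NT5E, ADM, SLC2A1, SEMA3B, NFATC1 and CCBE1 were named after their values were seen. Lengths of coding transcripts came from the GENCODE 29 basic set. Some genes of the protease and marker lists are not reported here. Upstream windows came from a RefSeq table on GRCh38.p14 in which 7 of 10 members had an entry.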

Additional observations from a re-analysis of the deposited data

How the results depend on the processing

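VEGFB stayed higher and PGF and KDR lower in all 15 fits of each, counting the one reported. Leaving FLT4 aside, NRP2 was also lower in all 15 of its fits and VEGFD higher in all 12 of its own. The fits share the same libraries, so a steady direction is no separate support. VEGFB passed the threshold with DESeq2 (log2 fold change 0.88) and without Cont replicate 1, and PGF with DESeq2 (-1.38). No other member passed under any alternative. When single libraries were left out, the log2 fold change ranged from 0.71 to 1.09 for VEGFB, from -1.60 to -1.07 for PGF, from -0.96 to -0.54 for KDR, from -0.23 to 0.12 for VEGFA, from -0.12 to 0.26 for VEGFC, from -0.034 to 0.067 for NRP1 and from -1.03 to 0.015 for FLT1, so the direction of the last 4 depended on single libraries. Library size scaling turned VEGFC to -0.031 and NRP1 to -0.075, with a median over all genes of -0.10. The cause was not tested.

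Over all genes, limma called 13 higher and 2 lower. The counts higher and lower were 33 and 10 with no filter on low values, 22 and 6 under library size scaling, 21 and 4 with TMM normalization, and 333 and 336 with DESeq2. The count lower was 1 with pseudocount 0.1 and 1 with edgeR. Leaving out a library gave 1 to 690 higher and 0 to 621 lower, the highest without Cont replicate 1. With a replicate block the counts were 28 and 19, and 1 gene of the further lists was called. The block changed no call of a member (VEGFB adjusted p = 0.116, PGF 0.135). Deviations from the group means of same-numbered libraries correlated across genes at r = 0.148, 0.013 and -0.007, so the numbers were not taken as pairs. Cont replicate 1 correlated best with SHC4 replicate 1, whereas Cont replicate 2 did so with SHC4 replicate 3 (r = 0.0992). The further lists had 0 calls in limma, 8 with DESeq2 and 0 to 13 with a library left out. Depth limits VEGFD and FLT4, with at most 15 and 7 reads. With the exons of all transcripts as length (added after seeing the data), VEGFA ranked below VEGFC and NRP1.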
